A study of Homo sapiens with 7 samples.

Results

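The mutants described here are single-base substitutions of cytosine to adenine, or of guanine to thymine, which is the same change read on the other strand, in candidate regulatory regions of the human genome. They were selected from the names of the authors' deposited table of mutant against wild-type sequence, where the final pair of fields gives the reference and the alternate base, and no measured value was used. The rule found 74 mutants among 879 single-base substitutions and 1025 mutant constructs in all. Of the 74, 26 were written as cytosine to adenine and 48 as guanine to thymine. They lay in 61 of the 376 regions of the table, 50 regions with 1 such mutant, 9 with 2 and 2 with 3. The sequences were read in a lentiviral massively parallel reporter assay, which integrates each candidate sequence beside a barcode and compares the barcode's abundance in RNA with that in genomic DNA (gDNA). The host was C4-2B, an established human prostate cancer line labelled as epithelial, and all groups shared this line and the same culture. The libraries were 3 of gDNA and 3 of RNA, taken 48 hours after transduction, and 1 that linked barcodes to sequences. The tables give no endogenous transcripts, so the label of the line could not be checked against marker genes.

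A cytosine-to-adenine change is a transversion, since a pyrimidine is replaced by a purine. It is known as the typical product of oxidised guanine, which can pair with adenine during replication, and of bulky carcinogen adducts on guanine. In an enhancer or promoter a single-base change can weaken a site that a transcription factor reads, create one, or fall where no factor binds, so its effect on a reporter may have either direction or be too small to measure.

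Each value below is an estimate from the authors' deposited table, taken as a log odds ratio (natural log) for RNA against gDNA, with the standard error that the estimate and its z value imply. A positive estimate is read as more RNA from the mutant than from wild-type sequence, and a fold is a fold of odds. Mutants are called higher or lower where the authors' adjusted p was under 0.05, and a region carries the name of the protein-coding gene it overlaps or lies nearest to, with no claim that it controls that gene. The replicates were combined by the authors, and the tables hold no reads, barcodes or replicate values, so the depth is unknown and an error is that of the authors' model alone.

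Reference sequence could be shown where a mutant fell in a RefSeq promoter window (GRCh38.p14, 250 bases before to 50 after a gene's start). Such windows held 3 of the 74 mutants, 2 of them in the same region. Of the 12 single-base substitutions of any kind that fell in such windows, the reference base given by the authors equalled the RefSeq base in 18 of 18 matches between a substitution and a window. The first sequence lies within the region nearest to COL15A1 and is the upstream part of the window of ADIPINT, a long non-coding RNA gene (chr9:98910954-98911203, plus strand); 2 mutants called lower fall in the bases printed. The second is the upstream part of the window of KRT33B, a hair keratin gene (chr17:41369814-41370063, minus strand), shown as the promoter beside a tested region with 1 cytosine-to-adenine mutant, called higher. The third is the 28-base overlap of that region with the KRT33B window (chr17:41369764-41369791, minus strand), which lies after the gene's start. Capitals mark the motifs searched on either strand, and no mutated base is marked.
ADIPINT upstream: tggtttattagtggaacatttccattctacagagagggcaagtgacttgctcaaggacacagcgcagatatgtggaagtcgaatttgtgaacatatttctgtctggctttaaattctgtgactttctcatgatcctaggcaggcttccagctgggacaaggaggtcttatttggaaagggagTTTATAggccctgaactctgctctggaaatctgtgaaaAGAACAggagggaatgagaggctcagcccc
KRT33B upstream: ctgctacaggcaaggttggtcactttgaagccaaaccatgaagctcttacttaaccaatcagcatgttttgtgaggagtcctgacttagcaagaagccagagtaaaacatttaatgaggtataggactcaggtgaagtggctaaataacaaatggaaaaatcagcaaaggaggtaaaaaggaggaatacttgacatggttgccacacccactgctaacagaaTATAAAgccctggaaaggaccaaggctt
KRT33B tested overlap: ttttgaaactgacttccagagctccact

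The motifs searched in the 250 upstream bases were TATAAA, the core of the TATA box, AGAACA, a half-site of the androgen receptor, TGTTTAC, read by forkhead factors such as FOXA1, and GGGCGG, the GC box. None of the 4 overlapped another in the sequences printed. KRT33B held TATAAA on the strand shown. ADIPINT held TATAAA on the opposite strand and AGAACA on the strand shown. Over 35116 promoter windows, TATAAA was found in 10.7% of the upstream parts, AGAACA in 12.4%, TGTTTAC in 2.98% and GGGCGG in 42.6%. A match describes the letters and is no evidence of binding.

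The first question was how often a cytosine-to-adenine change altered reporter activity, and in which direction. Calls in the authors' deposited table were made for 41 of the 74 mutants (55.4%), beside 56.6% of all 1025 mutant constructs and 455 of 805 other single-base substitutions (56.5%). By direction, 17 were called higher (23.0%, beside 29.5% of all mutant constructs) and 24 lower (32.4%, beside 27.1%), and 33 were not called. The share of calls was near that of the whole table. Lower calls made up 58.5% of the calls among cytosine-to-adenine mutants and 46.2% among the other substitutions, where 245 were higher and 210 lower. Among the other classes, counted on both strands together, lower calls made up 58.1% of calls for thymine to adenine, 52.2% for the cytosine-guanine exchange, 46.5% for thymine to cytosine, 44.3% for cytosine to thymine and 39.7% for thymine to guanine. Cytosine to adenine and thymine to adenine thus stood at the lower-leaning end of 6 classes. That is a description with no test, since mutants are not replicates of one another. Wild-type constructs carry the names of single mutants, and within the regions at ADAMTS2, NRARP and MCPH1 they had different values. Where a mutant had no wild-type construct of its name, no source used here states which wild-type sequence it was compared with.

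The lean toward lower activity was found among the less precisely measured mutants. Of the 53 cytosine-to-adenine mutants with a standard error under 0.2, 15 were called higher and 14 lower. Of the 21 with a standard error of 0.2 and over, 2 were called higher and 10 lower. The other single-base substitutions split 192 to 167 under 0.2 and 53 to 43 at 0.2 and over, higher calls first. What part the precision has in the lean was not tested.

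In size, the median absolute estimate was 0.38 over all 74 mutants (1.46-fold, quartiles 0.13 and 0.65) and 0.29 over the other 805 substitutions (1.34-fold, quartiles 0.14 and 0.63). Among those called it was 0.58 (1.78-fold, quartiles 0.39 and 0.91) against 0.52 (1.68-fold, quartiles 0.31 and 0.88). The standard errors were of like size, with a median of 0.12 in both sets. With precision held to a standard error under 0.2, the medians over all mutants were 0.24 and 0.23. In 3 bands of precision the order varied. With a standard error under 0.1 the medians were 0.13 over 23 mutants and 0.17 over 331 others, from 0.1 to 0.2 they were 0.44 over 30 and 0.37 over 290, and over 0.2 they were 0.72 over 21 and 0.81 over 184.

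The spread was uneven at its ends. Per the authors' deposited table, the estimates ran from -3.77 to 1.16, with quartiles at -0.42 and 0.27, against quartiles of -0.26 and 0.33 for the other substitutions. A change of over 2-fold was seen in 18 of the 41 called mutants (43.9%), 13 of them lower and 5 higher. Among the other called substitutions 158 exceeded 2-fold (34.7%), 75 lower and 83 higher. None of the 805 others was called below the lowest cytosine-to-adenine mutant, and 35 of the 245 called higher lay above the highest. No cytosine-to-adenine estimate was beyond 10 in size, while 13 of the other substitutions were, and those carry errors far larger than themselves. The z values had a robust SD of 3.60, beside 3.93 for the other substitutions and an SD of 1 if the model's error were the whole of the spread.

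Among mutants called lower, the lowest estimate per the authors' deposited table lay 6721 bp from NID2, which encodes the basement membrane protein nidogen-2, at -3.77 ± 0.72 (chr14:52075780-52083113). Its error was the largest of the 74, and the other mutant of that region was called higher. A mutant 25438 bp from SCN3A, a voltage-gated sodium channel gene, stood at -1.77 ± 0.38 per the authors' deposited table, with odds 5.87-fold lower (chr2:165061463-165062088, adjusted p = 1.11e-05). One 37019 bp from CMAS, which encodes the enzyme that activates sialic acid, stood at -1.58 ± 0.22 per the authors' deposited table, or 4.87-fold lower (chr12:22102687-22104490, adjusted p = 7.89e-12). Both had standard errors over 0.2, and the other mutant of each region was not called.

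The smallest p of the 74 belonged to a mutant inside KIAA1671, at -1.46 ± 0.14 per the authors' deposited table, or 4.30-fold lower (chr22:24999228-24999953, adjusted p = 1.61e-22). A second mutant of the same kind in that region stood at -0.57 ± 0.12 per the authors' deposited table, or 1.78-fold lower. Of the 9 mutants beside the first, 5 were called higher, so both cytosine-to-adenine changes ran against most of the called mutants of their region. Inside UNC13A, a gene of synaptic vesicle priming, a mutant stood at -1.02 ± 0.12 per the authors' deposited table, or 2.77-fold lower (chr19:17613723-17613857, adjusted p = 7.43e-17). There the other 2 mutants were also called lower.

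Further lower mutants per the authors' deposited table lay 34706 bp from SNTG1, a syntrophin gene, at -1.33 ± 0.26 (chr8:49874902-49875090), inside TMEM132C at -0.92 ± 0.22 (chr12:128294180-128296178) and inside GALNS, which encodes a lysosomal sulfatase, at -0.91 ± 0.22 (chr16:88828942-88829161). At TMEM132C and GALNS the 2 called companions in each region were higher. The ADIPINT window printed above, in the region 32640 bp from the collagen gene COL15A1, held mutants at -0.75 ± 0.24 and -1.14 ± 0.45 per the authors' deposited table, 11 bases apart (chr9:98910553-98911267, adjusted p = 0.0044 and 0.0222). Their difference of 0.39 ± 0.51 was within its error. Among smaller effects, a mutant 241666 bp from the trypsinogen gene PRSS1 stood at -0.29 ± 0.05 per the authors' deposited table, 1.34-fold lower, and ranked among the 10 smallest p because of its precision (chr7:142507380-142507806, adjusted p = 4.45e-09).

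Among mutants called higher, the top estimate lay, per the authors' deposited table, 14680 bp from TGFBI, which encodes an extracellular matrix protein induced by TGF-beta, at 1.16 ± 0.35, or 3.18-fold (chr5:136078498-136079380, adjusted p = 0.00245). It was the only mutant of its region and had a standard error over 0.2. A mutant 332444 bp from POU3F3, a neural transcription factor gene, stood at 0.85 ± 0.13 per the authors' deposited table, or 2.34-fold (chr2:104520197-104520832, adjusted p = 1.31e-09). The KRT33B mutant, in the short region whose overlap is printed above, reached 0.85 ± 0.11 per the authors' deposited table, or 2.33-fold (chr17:41369752-41369791, adjusted p = 6.27e-14). Of the called higher mutants it had the smallest p.

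A mutant inside HNRNPF, which encodes an RNA-binding protein of splicing, stood at 0.65 ± 0.12 per the authors' deposited table, or 1.91-fold (chr10:43396832-43397183, adjusted p = 4.1e-07). One inside PLCH1, a phospholipase C gene, stood at 0.60 ± 0.15 per the authors' deposited table (chr3:155704209-155705472), and one inside the transporter gene SLCO3A1 at 0.40 ± 0.09 (chr15:91967330-91968588); each was the only mutant of its region. Inside ARFGEF3 a mutant was called at 0.74 ± 0.33 per the authors' deposited table, close to the threshold (chr6:138229406-138230236, adjusted p = 0.0466). Inside DIP2C, 2 mutants 25 bases apart were called higher at 0.42 ± 0.07 and 0.55 ± 0.11 per the authors' deposited table (chr10:505128-506101). Their difference of 0.13 ± 0.13 was about the size of its error.

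Bonferroni adjustment over the table ended the calls of the mutants at TGFBI, PLCH1 and ARFGEF3 and of both at COL15A1. Of the called mutants named below it also ended those at NRARP, DIO3, ZNF556 and FAM91A1, that at -0.21 ± 0.06 inside ADAMTS2, and those at -0.37 ± 0.15 and 0.51 ± 0.16 near MCPH1, per the authors' deposited table. With z scaled by its robust SD over the table, 3.92, none of the 74 mutants was called. That scale was taken from the same z values, any effects included, so this setting cannot tell effects from unmodelled error. At an unadjusted p under 0.05 of the authors' logit model 47 were called (63.5%), beside 60.6% of the other single-base substitutions.

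The regions with several cytosine-to-adenine mutants let neighbouring changes of one kind be set side by side. Such regions numbered 11 and gave 15 pairs, of which 8 differed by more than 2 standard errors of the difference, taking the errors as independent. Among the 11 pairs at most 100 bases apart, 6 did. The same share was not computed for pairs of other mutants, so these counts set nothing apart about cytosine-to-adenine changes. The closest pair, 4 bases apart near SCN3A, held the lower mutant above and one at -0.09 ± 0.29 per the authors' deposited table, a difference of 1.68 ± 0.47.

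The region inside ADAMTS2, which encodes a procollagen-processing protease, held 3 such mutants within 107 bases, at -0.92 ± 0.15, -0.21 ± 0.06 and 0.03 ± 0.06 per the authors' deposited table (chr5:179124778-179125119). Per the authors' deposited table, the first 2 were called lower and the third was not called (adjusted p = 1.19e-08, 0.000329 and 0.731). The 3 differed pairwise by more than 2 standard errors. Their wild-type constructs differed too. Against scrambled sequence these stood at -0.22 ± 0.07, 0.02 ± 0.05 and -0.22 ± 0.08 in the same order, per the authors' deposited table. What part the wild-type constructs have in the differences was not tested.

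The region 299 bp from MCPH1, the microcephalin gene of the DNA damage response, held 3 mutants within 72 bases, at -0.37 ± 0.15, 0.73 ± 0.12 and 0.51 ± 0.16 per the authors' deposited table (chr8:6648807-6650052). Per the authors' deposited table, the first was called lower and the others higher (adjusted p = 0.0282, 4.89e-08 and 0.00293). The higher mutants lay 24 bases apart and differed by 0.22 ± 0.20, while the lower one differed from them by 1.10 ± 0.20 and 0.88 ± 0.22. One kind of base change thus had opposite signs inside 1 region, though the wild-type constructs of the same names differed. Against scrambled sequence, that of the lower mutant stood at 3.04 ± 0.34 per the authors' deposited table. That of the mutant at 0.73 ± 0.12 stood at 0.53 ± 0.15, and the mutant at 0.51 ± 0.16 had none there.

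Near NRARP, which encodes a feedback inhibitor of Notch signalling, 2 mutants 40 bases apart were called higher at 0.38 ± 0.10 and 0.28 ± 0.09 per the authors' deposited table (chr9:137291869-137293867). The pairs near NCCRP1 (-0.03 ± 0.08 and 0.02 ± 0.07), near the nuclear pore gene NUP85 (-0.09 ± 0.19 and 0.01 ± 0.09) and inside the carbonic anhydrase gene CA5A (-0.10 ± 0.09 and -0.05 ± 0.06) were not called per the authors' deposited table. At a gene end of NWD1, mutants 1061 bases apart stood at -0.70 ± 0.16, called lower, and 0.04 ± 0.07, not called, per the authors' deposited table. They differed by 0.73 ± 0.18.

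A mutation of another kind lay within 30 bases of 33 of the 74 mutants, giving 55 comparisons, of which 33 differed by more than 2 standard errors. Here too the share over other neighbouring mutants was not computed. In 3 cases the name of an insertion or deletion gave the same site. At HNRNPC, the gene of a nuclear ribonucleoprotein, the substitution stood at 0.53 ± 0.12 and the insertion or deletion at 1.72 ± 0.38 per the authors' deposited table, both called higher (chr14:21270506-21270854). Near TNS1, the tensin-1 gene, they stood at 0.16 ± 0.08, not called, and 0.97 ± 0.13, called higher, per the authors' deposited table (chr2:217797790-217797879). Near FAM91A1 both were called higher, at 0.09 ± 0.04 and 0.26 ± 0.07 per the authors' deposited table (chr8:123823462-123823670). In these 3 cases the estimate of the insertion or deletion was the larger.

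At KRT33B the neighbouring base carried a thymine-to-adenine change, on one strand or the other, called lower at -0.61 ± 0.13 per the authors' deposited table, against the higher call of 0.85 ± 0.11. The difference was 1.46 ± 0.17. An insertion or deletion named 1 base from the same KRT33B mutant was also called higher, at 0.21 ± 0.09 per the authors' deposited table. Inside GALNS, a cytosine-to-thymine change 4 bases from the lower mutant was called higher at 0.66 ± 0.09 per the authors' deposited table, a difference of -1.57 ± 0.24 for the cytosine-to-adenine mutant. Inside JPH3, which encodes a junctophilin, the mutant stood at -0.38 ± 0.07 per the authors' deposited table and a cytosine-guanine exchange 9 bases away at 0.82 ± 0.09, called in opposite directions (chr16:87680996-87681709). In these regions, substitutions a few bases apart were thus measured with opposite signs.

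A wild-type construct of the same name was present per the authors' deposited table of wild-type against scrambled sequence for 20 of the 74 mutants. Of these wild-type constructs 12 were called (60.0%, beside 62.3% of all 358 wild-type constructs), 6 higher and 6 lower. Both tables use wild-type reads, so an error in those reads can move both values, in opposite directions. The values are therefore set side by side and no relation is drawn. The same splits were not counted over the other mutants, so those below cannot be called particular to cytosine-to-adenine changes. Among the 6 with wild-type activity above scrambled sequence, 3 mutants were called lower, 1 higher and 2 neither.

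The 3 lower ones lay near MCPH1, with a wild-type value of 3.04 ± 0.34 and a mutant value of -0.37 ± 0.15 per the authors' deposited tables, inside the zinc finger gene ZNF556, with 0.93 ± 0.20 and -0.55 ± 0.22, and inside JPH3, with 0.57 ± 0.09 and -0.38 ± 0.07. A further MCPH1 construct stood at 0.53 ± 0.15 as wild-type and its mutant at 0.73 ± 0.12 per the authors' deposited tables. Of the 6 with wild-type activity below scrambled sequence, 1 mutant was called lower, inside ADAMTS2, and 5 were not called. Among the 8 whose wild-type construct was not called, 3 mutants were called higher, 2 near NRARP and 1 near the deiodinase gene DIO3 at 0.30 ± 0.08, and 2 lower, inside ADAMTS2 and inside VEGFB, a growth factor gene, at -0.43 ± 0.08, per the authors' deposited tables. The other 3 of these mutants were not called. One of the 8, inside FDPS, had a wild-type fit without a bound.

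The letter in which the substitution was written on the genome's plus strand went with a different split of calls. Of 26 mutants written as cytosine to adenine, 12 were called (46.2%), 7 higher and 5 lower, with a median estimate of 0.07. Of 48 written as guanine to thymine, 29 were called (60.4%), 10 higher and 19 lower, with a median of -0.16. With 1 mutant per region, that of smallest p, the splits were 7 to 5 and 9 to 15. With a standard error under 0.2 they were 7 to 3 and 8 to 11. No source used here gives the orientation in which the regions were cloned, and the difference was not tested.

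By place, 36 of the 74 mutants lay in regions inside a protein-coding gene, 34 in intergenic regions and 4 in regions across a gene end. Calls were made for 19 of the 36 (52.8%) and 21 of the 34 (61.8%), against 61.1% and 50.9% of the other substitutions in such regions. The order of the shares was opposite in the 2 sets, and the difference was not tested. By length of region, 14 of 25 mutants (56.0%) were called in regions under 500 bp, 17 of 27 (63.0%) from 500 to 1500 bp and 10 of 22 (45.5%) over 1500 bp, against 55.7%, 56.8% and 57.0% of the other substitutions. The regions with cytosine-to-adenine mutants had a median length of 974 bp, beside 845.5 bp for all regions with a single-base substitution.

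Of the 61 regions with cytosine-to-adenine mutants, 46 also held other single-base substitutions. These numbered 148, of which 91 were called (61.5%), 48 higher and 43 lower. Their median absolute estimate was 0.33, against 0.38 for all 74 cytosine-to-adenine mutants. The 74 are not fully matched to them, since 17, in 15 regions, had no other substitution in their region. Of those 17, 8 were called (47.1%, beside 55.4% of the 74), 6 higher and 2 lower. Of the gene lists, splicing held the HNRNPC mutant above. That list did not include HNRNPF, whose mutant is also named above. The neuroendocrine list held a mutant inside the adhesion molecule gene NCAM1 at 0.50 ± 0.46 per the authors' deposited table, not called. The list of autophagy and nutrient sensing held a mutant inside RPTOR, a subunit gene of mTORC1, at 0.19 ± 0.14 per the authors' deposited table, not called. The androgen receptor and prostate lineage list and the list of 10 zinc finger transcription factors held 0 of the 74. The latter was a short selection that did not include ZNF556, the zinc finger gene with a mutant named above.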

How the data were processed

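The series held 3 gDNA and 3 RNA libraries and 1 linking barcodes to sequences. Per the submitters' processing notes, Bowtie2 and hg38 were used, with neither role nor version stated. The analysis used 2 tables of comparisons deposited by the authors. Estimates are log odds ratios, since the deposited file headers name a logit model, and were read as natural log values, that model's usual scale. Direction was read from the tables' names. The authors deposited a z score, a p-value and a q-value for each construct. Recomputation from z gave the same p (two-sided, normal) and the same q (Benjamini-Hochberg over the table). No source used here gives depth, barcodes per construct, construct length or the exact model.

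Names were split into their fields, the region's start was raised by 1 base, and members were counted with Python 3.11.15, pandas 2.3.3, NumPy 2.4.6 and SciPy 1.17.1. Genes came from 19974 protein-coding genes of GRCh38.p14, by overlap or nearest gene body; exons and introns were not resolved. Counts, BH adjustment and the robust SD were tested on simulated data. Mutants named are the 10 highest and 10 lowest called estimates (1 per region, that of smallest p), the 10 smallest p, regions with 3 such mutants, sites shared with another mutation and the gene lists; others were named after their values were seen. Members and lists were chosen with earlier results of these data known. Comparisons between sets are descriptions. Mutated positions are not reported here.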

Additional observations from a re-analysis of the deposited data

How the results depend on the processing

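No paired analysis was possible because the deposited tables combine the replicates, and no replicate could be left out for the same reason. Of 30 recomputed values, 22 kept their size. The count was judged against 1.5 times, the median sizes against the median standard error of the members and the spread of z against 1. Bonferroni adjustment left 23 calls among the 74 mutants, 8 higher and 15 lower, or 31.1%, beside 29.7% of the other single-base substitutions. With z divided by its robust SD over the table, 3.92, the count was 0 in all, 0 higher and 0 lower, beside 1 among the other substitutions. The divisor comes from the same z values, any effects included, so this setting cannot tell effects from unmodelled error. At an unadjusted p under 0.05 of the authors' logit model the count was 47 (63.5%), beside 60.6% of the other single-base substitutions. With a standard error under 0.2, chosen after seeing the data, the lower calls were 14, and the median size over all mutants was 0.24. An adjusted p under 0.01, 1 mutant per region and adjustment over single-base substitutions alone moved no count of the 74 mutants by over 1.5 times. The mutant kept per region was that of smallest p, a choice made on the values. It left 55.7% of 61 cytosine-to-adenine mutants called, beside 72.3% of 307 other single-base substitutions. The others offered more mutants per region to choose from, 805 in 307 regions against 74 in 61. The choice thus raises their share more, and these shares are not comparable. The tables give no depth, so a standard error over 0.2 is the only sign of a thinly measured mutant.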

Other observations

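The split by written letter was also present in the other substitutions at a cytosine-guanine pair, chosen for a look after the values of the cytosine-to-adenine mutants were seen. Of 139 cytosine-guanine exchanges and cytosine-to-thymine changes written with cytosine as the reference, 75 were called, 47 higher and 28 lower, with a median estimate of 0.07. Of 146 written with guanine, 86 were called, 39 higher and 47 lower, with a median of -0.01. Lower calls thus made up 37.3% and 54.7% of calls, beside 41.7% and 65.5% for the cytosine-to-adenine mutants. With 1 mutant per region, that of smallest p, the splits of the other changes were 39 to 28 and 31 to 40, higher calls first. With a standard error under 0.2 they were 34 to 18 and 30 to 39. By class, over all such mutants, cytosine-guanine exchanges gave 14 to 8 when written with cytosine and 8 to 16 when written with guanine. Cytosine to thymine gave 33 to 20 and 31 to 31, so its form written with guanine had no lean. Substitutions at a thymine-adenine pair varied by class. Thymine to cytosine gave 47 to 33 when written with thymine and 52 to 53 when written with adenine, thymine to guanine 18 to 17 and 29 to 14, and thymine to adenine 6 to 8 and 7 to 10. The split was thus also present in 1 of these 3 classes, thymine to cytosine, and opposite in thymine to guanine. No test was run on these counts.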
